A study of Mus musculus with 6 samples.

Results

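Microglia are the resident macrophages of the brain, and 33 genes that mark their identity were followed here in the ventral midbrain of mice labelled Bach1 KO and of wild-type mice. The genes were taken from a fixed list of names, which was chosen with earlier results of these data known. Each was read on the probe set annotated to that symbol alone with the highest mean over the 6 arrays, and all 33 had one, out of 22180 genes measured in this way. RNA came from the ventral midbrain of male mice 2 months of age, and biotin-labelled targets were hybridised to Affymetrix arrays, 3 of Bach1 KO and 3 of wild-type tissue. BACH1 is a transcriptional repressor of heme oxygenase and other oxidative stress genes. The labels name no strain, allele design or further treatment, and do not say whether the 3 samples of a group came from separate animals, so a p-value here reflects sample-to-sample spread, which may be technical. The question was which of these genes differed when Bach1 was knocked out.

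Microglia arise from yolk sac progenitors and depend on signalling through the CSF1 receptor. In the healthy brain they keep a homeostatic program that is set up by the transcription factors PU.1 (Spi1), IRF8 and SALL1 and by TGF-beta, and that includes P2ry12, Tmem119, Cx3cr1 and Siglech. On activation, microglia typically lower such genes and raise phagocytic and lysosomal genes, in part through TREM2 and its adaptor TYROBP. All values below are log2 expression levels after the robust multi-array average (RMA), and differences are Bach1 KO minus wild type on that log2 scale. Levels of different genes are not ranked, because probe sets differ in how brightly they bind.

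The 3 Bach1 KO arrays had medians of 5.62 to 5.69 and the 3 wild-type arrays 5.58 to 5.62, all slightly lower. Hmox1, a direct BACH1 target, had a log2 difference of 1.95 (limma, adjusted p = 0.0181) and was the one gene that passed among the 22180. That call was lost with any 1 array left out, where limma called 0 probe sets, and with the replicate number as a block. The Bach1 probe set itself was not lower on the Bach1 KO arrays (7.59, 7.68 and 7.70 against 7.46, 7.59 and 7.57), and directions follow the labels. The tissue label was checked against its defining markers, with tyrosine hydroxylase (Th) at 11.02 to 11.49 and the dopamine transporter Slc6a3 at 11.69 to 12.17. All 33 microglial genes had a mean level over 5.07, the 40th percentile of all probe sets. Of markers of other immune cells, 11 of 12 for border macrophages, 6 of 10 for lymphocytes and 2 of 12 for monocytes and neutrophils did so. The defining genes of those cells were Mrc1 at 6.01 to 6.65 and Cd163 at 5.14 to 5.45 (border macrophages), Cd3e at 5.01 to 5.39 (T cells) and S100a8 at 3.17 to 3.78 (neutrophils). RMA values have no zero, so none of these markers is read as absent. In bulk tissue, fewer microglia and less RNA per microglial cell cannot be told apart.

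None of the 33 genes passed the test. Limma with Benjamini-Hochberg adjustment over all probe sets called 0 of 33 at an adjusted p under 0.05, where it called 0.00726% of all probe sets, and the smallest adjusted p of the list was 0.516. By their means 20 genes were higher and 13 lower on the Bach1 KO arrays, while 46.9% of all genes were higher. Once each array was centred on its median, 13 were higher and 20 lower, and without Bach1 KO replicate 1 the counts were 15 and 18. The median difference was 0.032, beside -0.0098 over all genes. It was -0.015 beside -0.057 over all genes after median centring, and -0.028 without Bach1 KO replicate 1, so its sign depended on these settings. Median centring lowers the difference of every gene by the same amount, and the members' median stayed above that of all genes there. The differences ran from -0.34 to 0.21. At an unadjusted p under 0.05, 2 of 33 were lower (Siglech and Cd14) and 0 higher, against 2.71% and 3.8% of all genes. The 3 arrays of one group lay apart from the 3 of the other for 4 of 33 genes, against 14.3% of all genes. The genes apart were Cx3cr1 and Mertk on the higher side (all genes, 6.36%) and Siglech and Cd14 on the lower side (all genes, 7.94%). Without Bach1 KO replicate 1 or replicate 2 the count apart was 10 in either case (all genes, 24.8% and 22.7%), without wild-type replicate 1 or 2 it was 7 in either case (28.4% and 21.0%), and after renewed quantile normalization 7 (12.9%). After median centring 3 genes were apart (17%), all lower: Siglech, Cd14 and Ptprc.

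**Figure D1:**
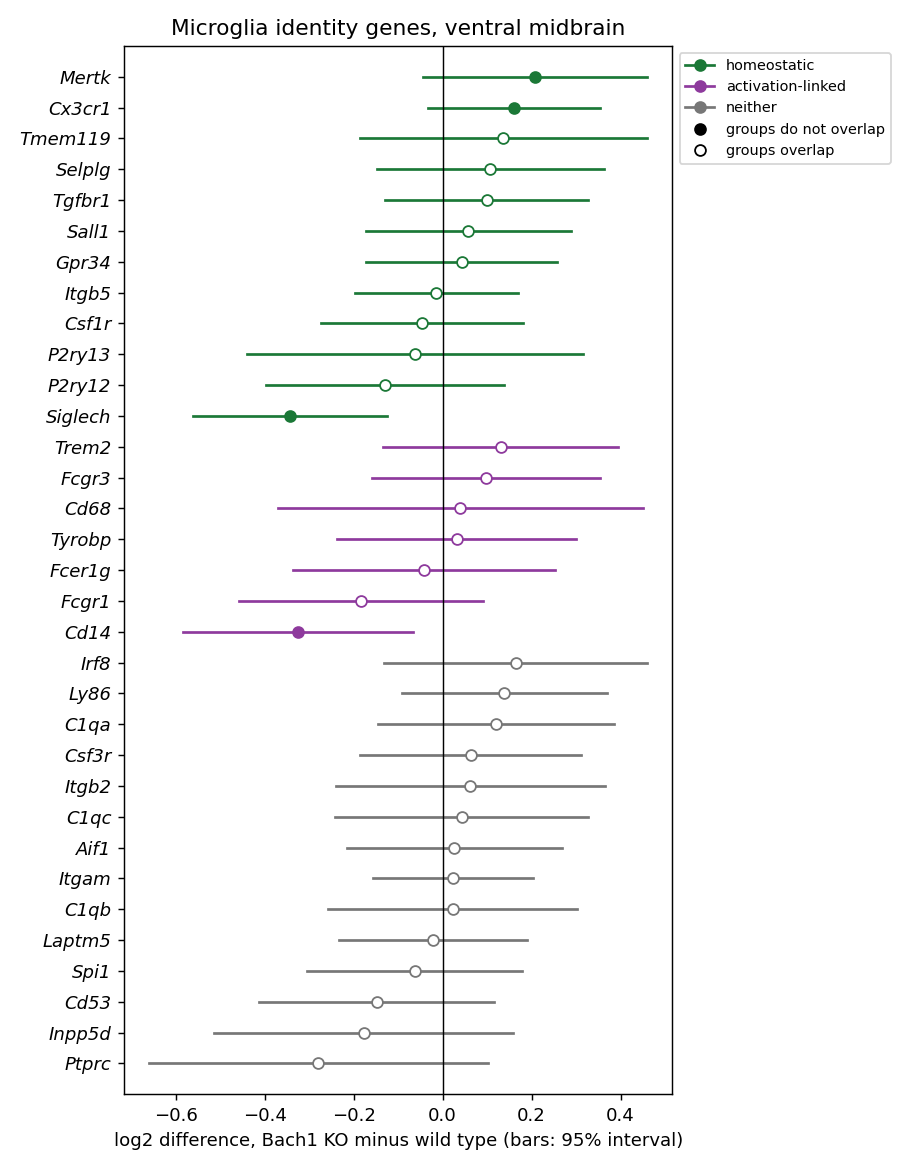
Log2 difference, Bach1 KO minus wild type, of each of the 33 microglia identity genes (points) with its 95% interval (bars), from limma on 3 arrays a group. Colours give the homeostatic, activation-linked and remaining genes, and filled points mark the 4 genes whose groups do not overlap. The intervals of Siglech and Cd14 lie below 0, and those of the other 31 genes include 0.

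Of the 7 genes of surface receptors and other surface proteins, Siglech had separate groups on the lower and Cx3cr1 on the higher side. Siglech encodes a sialic acid-binding lectin of microglia that signals through TYROBP. Its levels (probe set 17478511) were 7.24, 7.04 and 7.23 on the Bach1 KO arrays and 7.56, 7.47 and 7.50 on the wild-type arrays. Every Bach1 KO value lay below every wild-type value. The log2 difference was -0.34 (SE 0.090, 95% interval -0.56 to -0.12) and did not pass (limma, unadjusted p = 0.0082, adjusted p = 0.516). It stayed between -0.39 and -0.28 in all alternative settings, including those that left out any 1 array. Cx3cr1, the receptor for the neuronal chemokine fractalkine, went the other way at 8.26, 8.27 and 8.17 against 8.07, 8.13 and 8.01 (probe set 17532268). Its groups did not overlap either, with a gap of only a few hundredths between the lowest Bach1 KO and the highest wild-type value, and they overlapped after median centring. The difference of 0.16 (95% interval -0.034 to 0.35) did not pass (limma, adjusted p = 0.641).

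P2ry12, the ADP receptor that guides microglial processes to injury, was at 8.55, 8.40 and 8.71 on the Bach1 KO arrays and 8.79, 8.68 and 8.58 on the wild-type arrays (probe set 17405482). The groups overlapped, and the difference was -0.13 (95% interval -0.40 to 0.14). Tmem119, a membrane protein that separates microglia from other macrophages, was at 7.36, 7.09 and 7.56 against 7.24, 7.14 and 7.22 (probe set 17451431). Both the highest and the lowest Tmem119 level came from the Bach1 KO group, which therefore enclosed the wild-type values, and the difference was 0.14 (95% interval -0.19 to 0.46). The related nucleotide receptor P2ry13 had a difference of -0.062, the lysophosphatidylserine receptor Gpr34 one of 0.043, and Selplg, the P-selectin ligand, one of 0.11. Gpr34 changed sign, to -0.0038 and -0.0043, under the rescalings of the arrays. Selplg also had a dimmer probe set with a difference of -0.10, so its probe sets disagreed in sign. In all, 4 of these 7 receptors had a higher and 3 a lower mean.

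**Figure D2:**
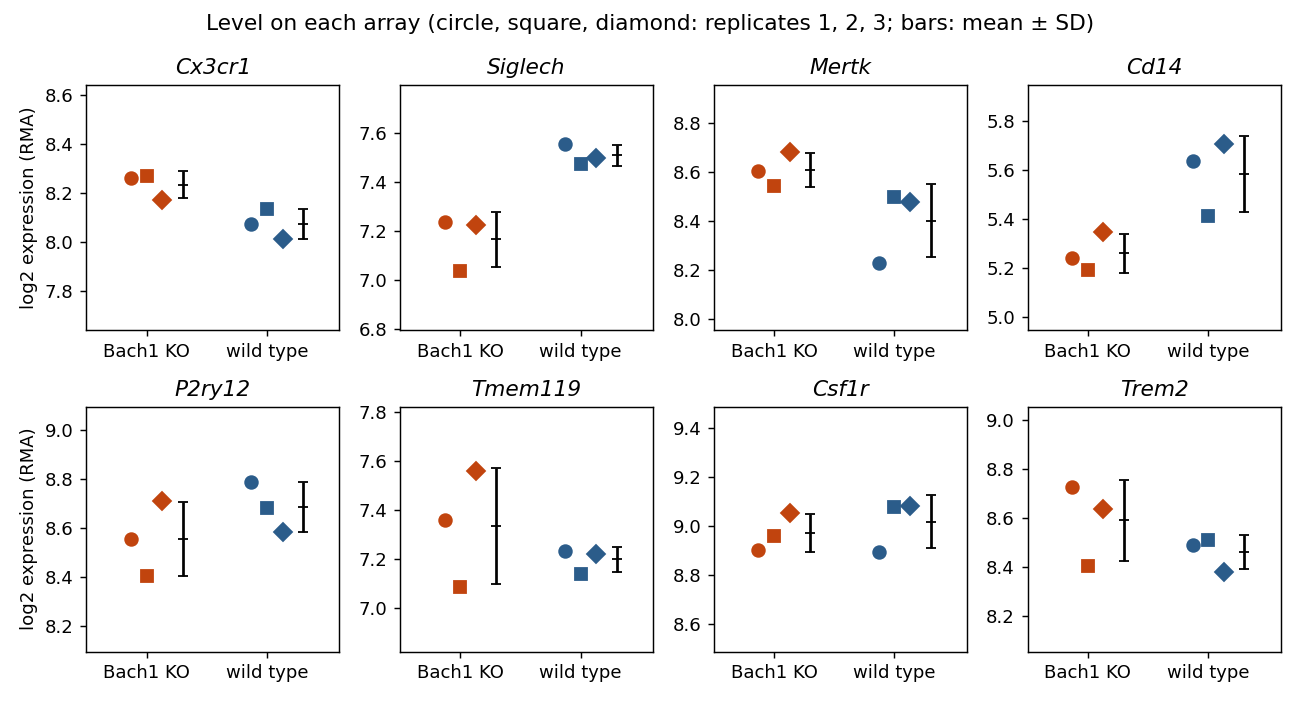
Log2 expression (RMA) of 8 microglia genes on each array, with circles, squares and diamonds for replicates 1, 2 and 3 of Bach1 KO (orange) and wild type (blue), and bars for the mean ± SD (n = 3). Every panel spans 1 log2 unit. The top row shows the 4 genes whose groups do not overlap, and in the bottom row P2ry12, Tmem119, Csf1r and Trem2 overlap.

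Growth factor and phagocytic receptors gave 1 further gene with separate groups. Mertk is the receptor tyrosine kinase with which microglia engulf apoptotic cells, and astrocytes express it too. It was at 8.61, 8.54 and 8.68 on the Bach1 KO arrays and 8.23, 8.50 and 8.48 on the wild-type arrays (probe set 17375997). All Bach1 KO values lay above the wild-type values, but 2 of the 3 wild-type values were close to them and wild-type replicate 1 was far below. The groups overlapped after median centring. The difference was 0.21 (95% interval -0.044 to 0.46; limma, adjusted p = 0.641), and 0.12 without wild-type replicate 1. Csf1r, the receptor on which microglial survival depends, was at 8.90, 8.96 and 9.05 against 8.89, 9.08 and 9.08 (probe set 17351053). The groups overlapped across nearly their full range, with a difference of -0.046 (95% interval -0.27 to 0.18). The TGF-beta receptor chain Tgfbr1 had a difference of 0.099 and the granulocyte growth factor receptor Csf3r one of 0.064. Csf3r was at -0.028 without Bach1 KO replicate 1.

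The complement chains, which join to form C1q, the protein that tags synapses and debris for removal, did not differ beyond their spread. C1qa was at 8.22, 8.12 and 7.92 against 7.91, 7.91 and 8.08 (probe set 17431619), a difference of 0.12 (95% interval -0.15 to 0.38). C1qb was at 10.23, 9.92 and 9.93 against 9.94, 10.11 and 9.96 (probe set 17431607), a difference of 0.023. C1qc was at 7.60, 7.48 and 7.66 against 7.34, 7.56 and 7.71 (probe set 17431612), a difference of 0.043. All 3 chains overlapped between the groups and had a slightly higher mean on the Bach1 KO arrays, and C1qb and C1qc changed sign in some of the alternatives. The integrin chains of complement receptor 3, Itgam and Itgb2, had differences of 0.024 and 0.062, and Itgb5, a vitronectin receptor chain, one of -0.014.

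Of the 6 genes of TREM2, Fc receptor and linked signalling, 3 had a higher and 3 a lower mean. Trem2, the lipid-sensing receptor of phagocytic microglia, was at 8.73, 8.41 and 8.64 against 8.49, 8.51 and 8.38 (probe set 17338416). Bach1 KO replicates 1 and 3 were above all wild-type arrays and replicate 2 was among them, and the difference was 0.13 (95% interval -0.13 to 0.40). Tyrobp, its adaptor, was at 8.69, 8.40 and 8.58 against 8.48, 8.65 and 8.45 (probe set 17476364), with a difference of 0.032 (95% interval -0.24 to 0.30). The shared Fc receptor chain Fcer1g had a difference of -0.042, the high-affinity IgG receptor Fcgr1 one of -0.18 and the low-affinity receptor Fcgr3 one of 0.098. Inpp5d encodes SHIP1, a lipid phosphatase that restrains this signalling. It was at 7.43, 6.93 and 7.29 against 7.42, 7.40 and 7.35, so its difference of -0.18 (95% interval -0.51 to 0.16) came largely from Bach1 KO replicate 2 and was -0.035 without it.

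Promoters are shown for Trem2 and Inpp5d, which were both low on Bach1 KO replicate 2 beside replicate 1 and hold a searched motif, and for Siglech, which had the largest difference between the groups and holds none. Cd68 and C1qc hold a match and were lower on replicate 2 than on replicate 1 too, and their windows are not shown. The 250 bases before the RefSeq start (GRCm38.p6) are given 5′ to 3′ on the gene's strand, with motif matches in capitals.
Trem2, chr17:48346151-48346400, plus strand: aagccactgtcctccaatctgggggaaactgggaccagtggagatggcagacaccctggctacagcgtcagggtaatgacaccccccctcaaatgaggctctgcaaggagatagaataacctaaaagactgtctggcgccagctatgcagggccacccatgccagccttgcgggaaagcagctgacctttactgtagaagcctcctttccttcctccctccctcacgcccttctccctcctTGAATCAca
Inpp5d, chr1:87620062-87620311, plus strand: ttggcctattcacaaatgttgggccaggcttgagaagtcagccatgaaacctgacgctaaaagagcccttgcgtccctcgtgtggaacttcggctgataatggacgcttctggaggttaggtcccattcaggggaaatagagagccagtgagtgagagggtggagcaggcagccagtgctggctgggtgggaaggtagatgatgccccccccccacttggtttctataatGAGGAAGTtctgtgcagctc
Siglech, chr7:55767934-55768183, plus strand: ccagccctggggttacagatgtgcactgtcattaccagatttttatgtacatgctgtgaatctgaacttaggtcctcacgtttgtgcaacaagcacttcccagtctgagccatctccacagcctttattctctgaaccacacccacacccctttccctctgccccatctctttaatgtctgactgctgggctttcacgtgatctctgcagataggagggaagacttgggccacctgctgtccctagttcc

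Windows were available for 24 of the 33 genes and 27025 genes in all, and both strands were searched. The PU.1 core GAGGAAGT was in 2 of 24 members' windows, Inpp5d and C1qc, and in 2.79% of all genes' windows. In Inpp5d it lies 20 to 13 bases before the start. The pattern TGANTCA, with N for any base, was in 2 of 24, Trem2 and Cd68, and in 7.82% of all. It is wider than TGAGTCA or TGACTCA, the core that AP-1 factors and the BACH and Maf proteins share. Cd68 holds TGAGTCA at 2 places, while the Trem2 match is TGAATCA, which is outside that core. In Trem2 the match lies 9 to 3 bases before the start. A match is a string in this window and no evidence of binding, and a window without a match says only that these letters are not in it.

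Among the general leukocyte, lysosomal and endotoxin-sensing genes, Cd14 was the member with separate groups. CD14 is the co-receptor that hands lipopolysaccharide to TLR4. It was at 5.24, 5.19 and 5.35 on the Bach1 KO arrays and 5.64, 5.41 and 5.70 on the wild-type arrays (probe set 17353747). All Bach1 KO values were lower, and the difference of -0.33 (SE 0.11, 95% interval -0.58 to -0.066) did not pass (limma, unadjusted p = 0.0218, adjusted p = 0.555). This is a dim probe set, close above the 40th percentile. Tlr4 had a difference of -0.043 (95% interval -0.34 to 0.26). Ly96, the MD-2 subunit of the same receptor, had separate groups and a difference of -0.22 (95% interval -0.49 to 0.047). Ly86, the MD-1 partner of CD180, was at 0.14. Aif1, which encodes the microglial marker IBA1, was at 7.09, 6.89 and 7.15 against 7.06, 6.94 and 7.05 (probe set 17344289). The wild-type levels of Aif1 lay inside the Bach1 KO range, and the difference was 0.027 (95% interval -0.21 to 0.27). Ptprc, the pan-leukocyte phosphatase CD45, was at 5.47, 4.91 and 5.33 against 5.59, 5.43 and 5.53, with a difference of -0.28 (95% interval -0.66 to 0.10) that was -0.11 without Bach1 KO replicate 2. The lysosomal glycoprotein Cd68 had a difference of 0.040, the lysosomal protein Laptm5 one of -0.022 and the tetraspanin Cd53 one of -0.15.

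The transcription factors that set up microglial identity overlapped between the groups. Spi1 was at 6.78, 6.60 and 6.67 against 6.65, 6.88 and 6.70 (probe set 17373177), a difference of -0.063 (95% interval -0.30 to 0.18). Sall1, which in the adult brain is largely a microglial factor, was at 7.72, 7.57 and 7.83 against 7.59, 7.66 and 7.70 (probe set 17511540), a difference of 0.058 (95% interval -0.17 to 0.29). Irf8 was at 6.25, 6.41 and 6.29 against 6.03, 6.38 and 6.04, a difference of 0.16 (95% interval -0.13 to 0.46). A second Irf8 probe set (17548703), dimmer and not used for the gene, was at 5.01, 5.12 and 5.35 against 4.60, 4.60 and 4.65. Its mean of 4.89 lies below 5.07, the 40th percentile of all probe sets. There the groups were apart, with a difference of 0.54 (95% interval 0.28 to 0.80; limma, unadjusted p = 0.0021, adjusted p = 0.512). The probe sets of Irf8 thus agreed in direction and not in size, and neither passed.

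The difference between homeostatic and activation-linked genes was smaller than the spread between arrays. The homeostatic class held 12 members (the 7 surface protein genes from Siglech to Selplg above, Csf1r, Tgfbr1, Mertk, Sall1 and Itgb5). Of these 7 were higher and 5 lower, with a median difference of 0.050. The activation-linked class held 7 members (Trem2, Tyrobp, Fcer1g, Fcgr1, Fcgr3, Cd68 and Cd14), of which 4 were higher and 3 lower, with a median of 0.032. The homeostatic median minus the activation-linked median was 0.019, and it was 0.20 without Bach1 KO replicate 1, 0.12 without wild-type replicate 3, and slightly below 0 in several other settings. A score was then formed on each array as the mean over genes of the level minus the gene's mean over the 6 arrays. The homeostatic score minus the activation-linked score was -0.085, 0.064 and 0.10 on the Bach1 KO arrays and -0.047, -0.032 and -0.0021 on the wild-type arrays. The group means differed by 0.054, with a pooled SD of 0.072. The Bach1 KO arrays lay on both sides of the wild-type arrays, with the balance tipped to activation-linked genes on replicate 1 and to homeostatic genes on replicates 2 and 3.

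Activation genes outside the list were also split between higher and lower means. This list of disease-associated and inflammatory genes held 41 names, of which 39 were measured, and some of them, such as Apoe and Cd9, are also expressed by other brain cells. Of the 39, 19 had a higher and 20 a lower mean (all genes, 46.9% higher), with a median difference of -0.0087. Limma called 0, beside 0.00726% of all probe sets. The groups did not overlap for 4 of 39, 1 higher and 3 lower (all genes, 14.3%, with 6.36% higher and 7.94% lower). At an unadjusted p under 0.05 in limma, 0 were higher and 2 lower (all genes, 3.8% and 2.71%). These were the inhibitory receptor gene Lilrb4a at -0.56 (95% interval -0.92 to -0.20; limma, adjusted p = 0.516) and Ch25h, the enzyme that makes 25-hydroxycholesterol, at -0.26 (95% interval -0.49 to -0.034; limma, adjusted p = 0.571). Lpl, the lipoprotein lipase, had the highest difference of the list at 0.38 (95% interval -0.017 to 0.77). The lowest was that of the class II histocompatibility gene H2-Ab1 at -0.68 (95% interval -1.61 to 0.25). Of the same class, H2-Aa was at -0.60 (95% interval -1.58 to 0.38) and H2-Eb1 at 0.0032.

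A further list of microglia-enriched genes and a list of ligands and partners of the receptors held more lower than higher means, without a gene passing. The array scores of both lists overlapped between the groups. Of 42 measured microglia-enriched genes (47 named), 14 were higher and 28 lower, with a median of -0.052, while 46.9% of all genes were higher. Their score was 0.040, -0.11 and 0.0076 on the Bach1 KO arrays and 0.028, 0.054 and -0.023 on the wild-type arrays. Only Bach1 KO replicate 2 lay below the wild-type range. The kinase gene Syk, which acts downstream of TYROBP and Fc receptors, had a difference of 0.34 (95% interval 0.11 to 0.58; limma, adjusted p = 0.526), the interleukin-10 receptor chain Il10ra one of -0.19 and the sialic acid-binding receptor Cd33 one of -0.29. Of 36 measured ligands and partners (37 named), 11 were higher and 25 lower, with a median of -0.037. Csf3, the ligand of the Csf3r receptor, had a difference of 0.52 (95% interval 0.17 to 0.87; limma, adjusted p = 0.526). The integrin chain Itgal was at 0.34 (95% interval 0.084 to 0.60; limma, adjusted p = 0.542). Tgfb1, the TGF-beta ligand that maintains the homeostatic program, was at -0.23 (95% interval -0.45 to 0.0041).

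Most of the 33 genes differed in the same direction between replicate 1 and replicate 2 of the Bach1 KO group. Replicate 1 was the highest of the 6 arrays for 14 of 33 genes (all genes, 14.9%), and replicate 2 was the lowest for 18 of 33 (all genes, 24.6%). From replicate 2 to replicate 1, 29 of 33 genes were higher, by a median of 0.18, whereas 54.3% of all genes were higher, by a median of 0.020. Among the 15790 genes above the 40th percentile of level these values were 56.5% and 0.026. The largest gaps were 0.56 for Ptprc, 0.54 for Cd68 (8.80 against 8.25), 0.51 for P2ry13 (7.34 against 6.82) and 0.49 for Inpp5d. All 7 activation-linked and 9 of 12 homeostatic genes were higher on replicate 1, and the 4 exceptions among the 33 were Cx3cr1, Gpr34, Csf1r and Irf8. Replicate 2 was also lower than replicate 3 for 26 of 33 genes, with a median difference of -0.16. It was higher than replicate 3 for 45.8% of all genes and 41.7% of those above the 40th percentile, with medians of -0.021 and -0.036. Replicate 1 was higher than replicate 3 for 19 of 33 (all genes, 49.6%). Of the 6 arrays, replicate 2 had the highest median level, 5.687, and the smallest SD of levels, 2.359 against 2.369 to 2.395. The part of this in the values of the 33 genes was not tested. For the pairs of wild-type arrays the first-numbered array was higher for 11, 18 and 21 of 33 genes, with medians of -0.042, 0.012 and 0.068.

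**Figure D3:**
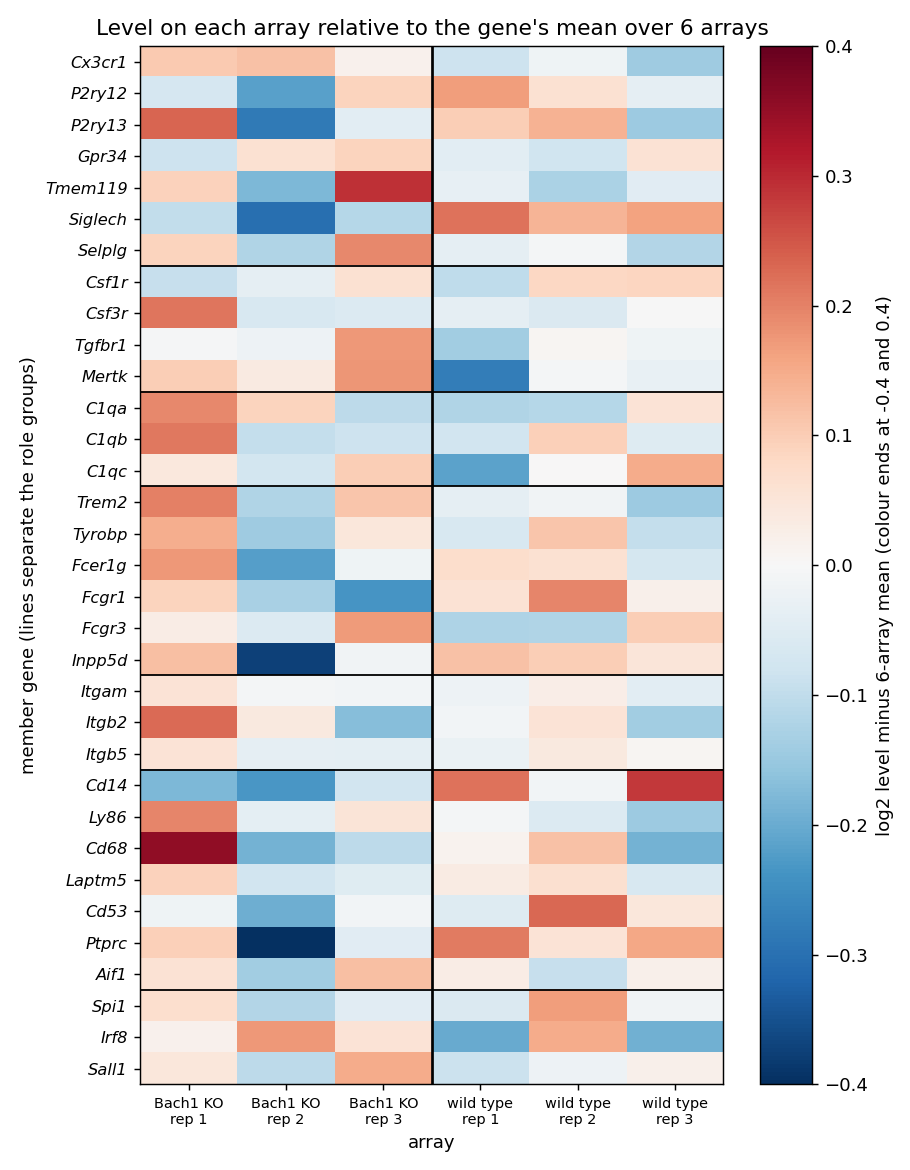
Log2 level of each of the 33 microglia identity genes (rows, ordered by role) on each of the 6 arrays (columns) minus that gene's mean over the 6 arrays, red for higher and blue for lower. The column of Bach1 KO replicate 2 is blue for 27 of 33 genes and that of Bach1 KO replicate 1 red for 26 of 33.

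The genes also covaried over the arrays. With the group means removed, the median Pearson correlation over the 528 pairs of members was 0.32, beside 0.0065 over all pairs of genes. Over the 6 arrays as they stand it was 0.25 (Spearman 0.26). Without Bach1 KO replicates 1 and 2, which were the arrays farthest from the middle for these same genes, the median over the 4 remaining arrays was 0.082 (Spearman 0), beside 0.0024 over all pairs of genes. These are descriptions over 6 arrays that share 1 normalization, and the pairs are not independent. The range among the Bach1 KO arrays was wider than among the wild-type arrays for 24 of 33 genes (all genes, 53.4%), with median ranges of 0.25 and 0.15 (all genes, 0.23 and 0.21). The mean score of all 33 genes was 0.084, -0.11 and 0.020 on the Bach1 KO and -0.019, 0.036 and -0.014 on the wild-type arrays. The group means of this score were -0.00085 and 0.00085, a difference far inside the spread of the arrays.

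Other gene groups were also low on Bach1 KO replicate 2. On this array the further microglia-enriched genes scored -0.11, oligodendrocyte markers -0.15, vessel markers -0.19 and meningeal fibroblast markers -0.50, each the lowest of the 6 arrays. Meningeal fibroblast markers were almost as low on wild-type replicate 1, at -0.47, where the 33 genes scored -0.019. Dopamine neuron markers scored 0.088, -0.14 and 0.23 on the Bach1 KO and -0.035, 0.020 and -0.17 on the wild-type arrays. General neuron markers scored between -0.036 and 0.050 on the 6 arrays, with Bach1 KO replicate 2 at -0.016. Astrocyte markers scored 0.024, -0.037 and 0.0026 on the Bach1 KO and -0.060, 0.057 and 0.013 on the wild-type arrays, lowest on wild-type replicate 1. Border macrophage scores were 0.056, -0.15 and 0.062 on the Bach1 KO and -0.19, 0.11 and 0.11 on the wild-type arrays, where replicate 1 was the low array. Monocyte and neutrophil markers scored -0.019 to 0.079 on the Bach1 KO and -0.18 to 0.077 on the wild-type arrays. Lymphocyte markers scored 0.042 to 0.075 on the Bach1 KO and -0.13 to 0.0012 on the wild-type arrays, without overlap, at levels near the dim end. Vessel scores were -0.19 to 0.022 against 0.039 to 0.12, also without overlap. The part of these cell types and of tissue sampling in the values of the 33 genes was not tested.

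**Figure D4:**
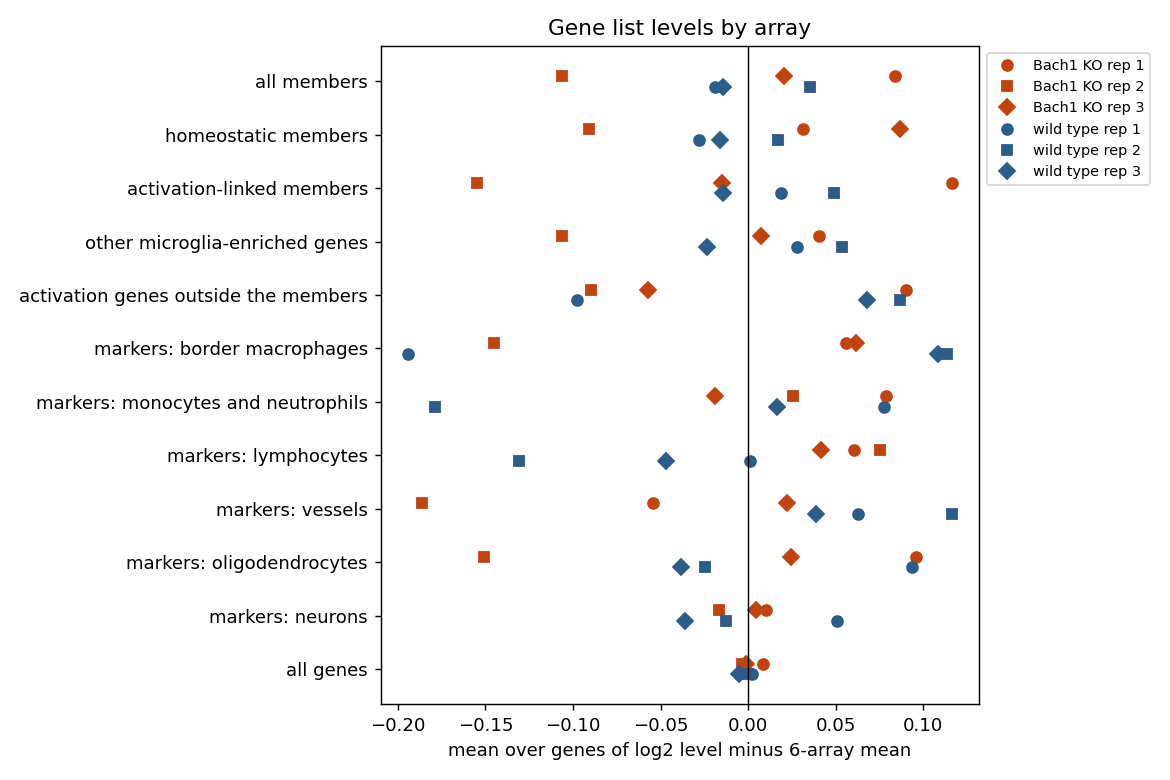
Score of 12 gene lists on each array, as the mean over the genes of a list of the log2 level minus the gene's mean over 6 arrays (horizontal axis), with 1 symbol per array. Bach1 KO replicate 2 is lowest for the microglial lists except the activation genes outside the members, where wild-type replicate 1 is lowest, and for the vessel and oligodendrocyte markers.

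Within an array, 10 of 33 genes separated the groups once each array was centred on the mean of the 33 genes, against 12% of all genes. The centring removes spread that the genes share and was made from the genes themselves, so this count describes their balance and is not independent evidence. For the same reason the share of all genes is not a like comparison. Cx3cr1, Selplg, Mertk, Trem2 and Ly86 were on the higher side and Siglech, Fcgr1, Inpp5d, Cd14 and Ptprc on the lower. The deviation of Siglech from its own 6-array mean, minus the mean deviation of the other 32 genes, was -0.19, -0.20 and -0.14 on the Bach1 KO and 0.24, 0.10 and 0.18 on the wild-type arrays. Siglech had the largest difference of the 33 genes and is given for that reason, so these values describe it and do not show which genes changed.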

How the data were processed

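Total RNA was extracted with Trizol and cleaned on Qiagen columns, per the labels' protocols. The deposited log2 values are 1 per probe set and array, background corrected, normalized between arrays and summarised by RMA, per the submitters' processing notes. Its version is not given in the sources used here. RMA gives arrays nearly the same distribution and compresses differences of dim probe sets. Correlations between arrays were 0.984 to 0.989. Probe sets were named from the platform annotation (23521 with 1 gene, 1814 with several, which were left out), updated by Entrez identifier to RefSeq (GRCm38.p6, 23328 matched).

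All 41345 probe sets on 6 arrays were fitted with limma 3.58.1 in R 4.3.3 (lmFit, eBayes with 2.21 prior degrees of freedom), with no covariate, and a call meant an adjusted p under 0.05 (Benjamini-Hochberg). With 3 against 3 arrays, an exact permutation test of 1 gene cannot go below p = 0.1 and was not used. Lists held 236 genes, 11 of which were not analysed here. Members and lists were chosen with earlier results of these data known. Levels on every array are given for 12 index genes and for members apart or at an unadjusted p under 0.05, and for other lists the genes with the smallest p. Inpp5d, Ptprc, Cd68, P2ry13, Irf8, Ly96, H2-Ab1, H2-Aa and H2-Eb1 were picked with their values known. Alternatives were renewed quantile normalization, median centring, trended and robust priors, a filter on dim probe sets, the mean of a gene's probe sets, a replicate block, leaving out each array and, added after seeing the data, centring on the members' mean.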

Additional observations from a re-analysis of the deposited data

How the results depend on the processing

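Limma called 0 of the 33 genes in every alternative run, where the lowest adjusted p of a member was 0.426, and 18 of 33 kept the sign of their difference in all of them (10 higher, 8 lower). The priors, the filter on dim probe sets and the replicate block leave the differences unchanged, so no sign could change there. Of the 3 probe sets called over the whole table, Hmox1 among them, 0 remained when any array was left out or with the replicate number as a block, and 3 were called with the other scalings, priors and the filter on dim probe sets. The count over the whole table was not run with the mean of a gene's probe sets or with centring on the members' mean. The labels do not say whether the replicate numbers pair the samples. Deviations of same-numbered arrays from their group means correlated at 0.086, -0.033 and 0.039 for numbers 1, 2 and 3. Those of different-numbered arrays correlated at -0.083 to 0.046. Correlations this weak cannot decide whether samples were handled in pairs. The count of members whose groups do not overlap was 4 of 33 (all genes, 14.3%). It was 7 after renewed quantile normalization (12.9%), 3 after median centring (17%) and 10 after centring on the members' mean (12%). With 1 array left out it was 6 to 10 (all genes, 21% to 28.4%), where separation of 2 against 3 arrays is easier by construction. It was 5 with the mean of a gene's probe sets, where the share of all genes was not computed. The homeostatic minus activation-linked median ran from -0.025 to 0.20 with 1 array left out. The median difference of members ran from -0.028 to 0.076 with 1 array left out and was -0.015 after median centring, beside -0.057 over all genes. With 1 array left out, the differences that changed sign ran from -0.028 to 0.11 for Csf3r, -0.078 to 0.076 for C1qb, -0.033 to 0.11 for Tyrobp, -0.036 to 0.16 for Itgb2, -0.13 to 0.14 for Cd68, -0.19 to 0.064 for P2ry13, -0.14 to 0.057 for Fcer1g, -0.044 to 0.0019 for Itgb5, -0.073 to 0.010 for Laptm5, -0.027 to 0.10 for Aif1, -0.0015 to 0.13 for Sall1, -0.054 to 0.13 for C1qc and -0.11 to 0.0044 for Spi1. Those that changed sign after median centring were -0.0043 for Gpr34, -0.024 for C1qb, -0.0044 for C1qc, -0.015 for Tyrobp, -0.023 for Itgam, -0.0075 for Cd68 and -0.021 for Aif1, and after renewed quantile normalization -0.0038 for Gpr34 and 0.021 for Itgb5. The number of arrays limits the precision.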

Other observations

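The groups did not overlap for 2 of 10 lymphocyte markers and 1 of 12 monocyte and neutrophil markers, all on the higher side (all genes, 6.36%). Levels were low, and none of these genes passed (limma). Cd4, which some macrophages express besides T cells, was at 5.76 ± 0.17 against 5.45 ± 0.12 (SD, n = 3), a difference of 0.31 with limma's adjusted p = 0.583. The granulocyte gene S100a9 was at 4.92 ± 0.037 against 4.56 ± 0.30 (SD, n = 3), a difference of 0.36, while its partner S100a8 was at 3.38 against 3.56. Of 12 border macrophage markers 4 had a higher and 8 a lower mean. The groups were apart for Siglec1, a sialic acid receptor, at 0.31 (95% interval 0.037 to 0.59), and in the lower direction for F13a1 at -0.13 and Folr2 at -0.19. That is 3 of 12 markers, beside 14.3% of all genes.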
